A study of Mus musculus with 2 samples.

Results

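The cells described here were the 600 non-pluripotent cells with the highest joint expression of Tac2, Dmrtc2, Rnase1, Acsbg1, Ramp3 and Pcsk1n on day 16 of a culture in which fibroblasts were being turned into induced pluripotent stem cells (iPSCs). They came from 2 droplet single-cell 3' RNA-seq libraries of unsorted mouse cultures, replicate 1 and replicate 2, which the labels put in 1 group. Mouse embryonic fibroblasts (MEFs) carrying STEMCCA, a doxycycline-inducible cassette of Pou5f1, Klf4, Sox2 and Myc, had been kept in serum, LIF and ascorbic acid with doxycycline, so all cells carried such a cassette and were treated, and there was no untreated control. The study's text names 2 independent STEMCCA mouse systems for these data, and the labels do not say which system a library came from, so a difference between the libraries cannot be told apart from one between systems or cultures. RNA molecules were counted by unique molecular identifiers (UMIs), and levels are mean UMIs per 10000 UMIs of a cell. The libraries held 3109 and 3914 cells with 54145377 and 64654306 UMIs, and single cells held between 4753 and 60990 UMIs.

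Members were chosen by measured values. The value of each of the 6 genes was scaled to a z-score over all 7023 cells, and the 6 z-scores were averaged. A gate then kept the 6466 cells with fewer than 3 of the pluripotency genes Utf1, Tdgf1, Tdh, Nanog and Dppa4 detected, and the 600 cells with the highest score were taken over both libraries. The other 5866 gated cells, which passed the gate with a lower score, were the comparison, always within a library. Since the choice and the comparison used the same cells, every difference between them is a description and was given no test. The 557 cells that failed the gate are named only as a reference.

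As background, reprogramming of fibroblasts passes through loss of the mesenchymal programme, with silencing of collagens and other matrix genes, a gain of epithelial features and finally activation of the pluripotency network. Many cells do not complete this course, and cultures late in reprogramming hold cells at several stages beside cells that took other routes. The 6 genes that define the cells here are not known as 1 pathway. Tac2 encodes the precursor of the tachykinin neuropeptide neurokinin B, and Pcsk1n encodes proSAAS, an inhibitor of a proprotein convertase that cuts peptide precursors. Ramp3 is an accessory protein that sets the ligand preference of the calcitonin receptor-like receptor, and Rnase1 is a secreted ribonuclease. Acsbg1 is a synthetase that activates long-chain fatty acids, and Dmrtc2 belongs to the Dmrt family of transcription factors and is best known from male germ cells.

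The chosen cells were 221 of the 2949 gated cells of replicate 1, a share of 7.49% (exact 95% binomial interval 6.57 to 8.50, counting error only), and 379 of the 3517 gated cells of replicate 2, a share of 10.8% (9.77 to 11.8). The lowest score taken was 0.926, the highest was 3.81, and the medians were 1.39 in the chosen cells and -0.24 in the other gated cells. The edge was not a gap. The last cell inside, of replicate 2, had 5 Tac2 UMIs and 1 Acsbg1 UMI, and the first cell outside, of the same library, had 2 Dmrtc2 UMIs, 1 Ramp3 UMI and 16 Pcsk1n UMIs. There were 71 cells within 0.1 above the edge and 108 within 0.1 below it, so the 600 cells are the upper end of a range and not a separate class.

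Depth was similar on both sides. Median UMIs per chosen cell were 17183 (replicate 1) and 14156 (replicate 2), and per other gated cell 14874 and 13566. Only 2 and 3 chosen cells lay above the 95th percentile of UMIs of their library, which is 0.905% and 0.792% of them, against 4.22% and 3.25% of the other gated cells. The sources used here do not tell whether the authors removed doublets, and no doublet caller was run. The libraries shared 12 cell barcodes, which occurred on 2 chosen cells, and none of these barcodes was chosen in both.

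The values of the 6 genes show what the score picked. Tac2 averaged 2.47 UMIs per 10000 in the chosen cells of replicate 1 and 1.72 in those of replicate 2, and 0.0543 and 0.0623 in the other gated cells. Dmrtc2 averaged 1.59 and 1.36 in the chosen cells against 0.0691 and 0.0845. Both transcripts were rare outside the chosen cells. Pcsk1n, the most abundant, averaged 4.47 and 3.73 against 0.743 and 0.657. Ramp3 averaged 2.87 and 3.09 against 0.634 and 0.737. Acsbg1 averaged 1.80 and 1.78 against 0.372 and 0.307. Ramp3, Acsbg1 and Pcsk1n thus had a clear level in the other gated cells too, whereas Tac2, Dmrtc2 and Rnase1 were rare there. Rnase1 was the gene on which the libraries disagreed, with 0.119 in the chosen cells of replicate 1 and 0.802 in those of replicate 2, and 0.00670 and 0.0414 in the other gated cells. The libraries differed in Rnase1 by a like factor outside the chosen cells.

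**Figure D1:**
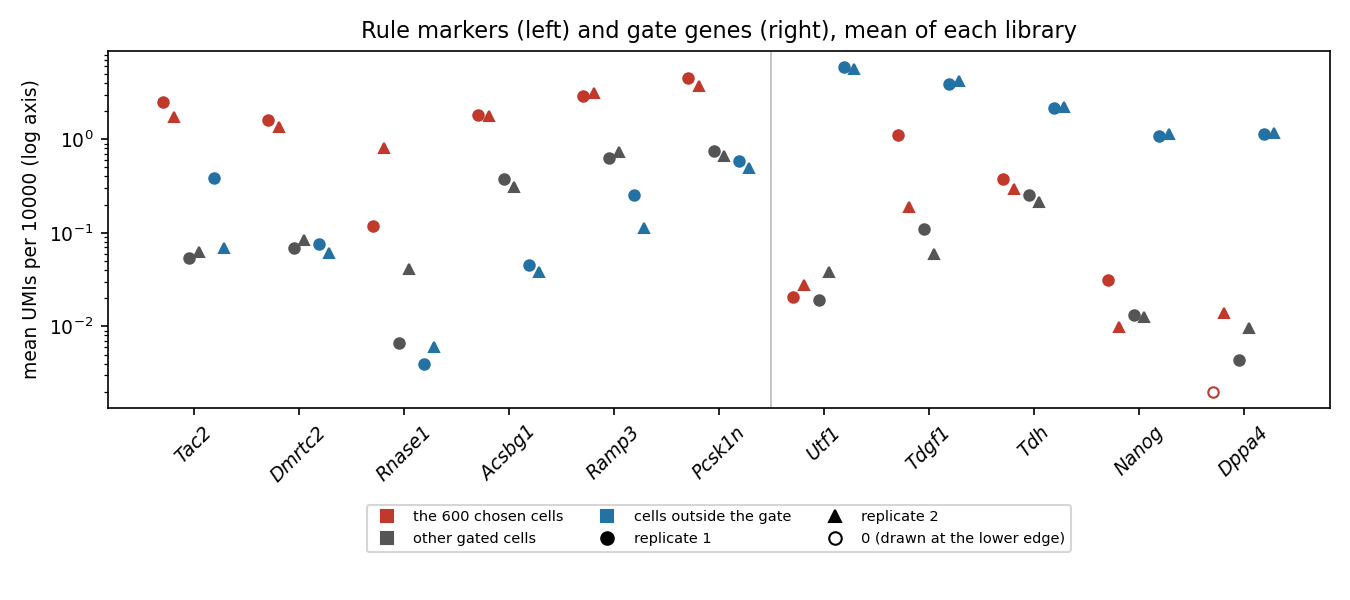
Mean UMIs per 10000 (log axis) of the 6 genes that chose the cells and of the 5 gate genes, for the chosen cells (red), the other gated cells (grey) and the cells that failed the gate (blue), with 1 symbol for each library. The chosen cells lie highest for the 6 genes, from 0.119 for Rnase1 in replicate 1 to 4.47 for Pcsk1n, and they lie below the blue symbols for all 5 gate genes, with Tdgf1 in replicate 1 (1.12) nearest to them; an open symbol at the lower edge stands for 0.

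Few cells carried all 6 transcripts. Of the 600 cells, 271 had a UMI of 4 of the genes, 149 of 5, 129 of 3 and 22 of all 6, and 29 had 1 or 2. Among the other gated cells 2219 of 5866 had none, and 9 had 5 or 6. Ramp3 was missing from 37 chosen cells (6.17%) and Pcsk1n from 124 (20.7%), but Tac2 was missing from 340 (56.7%) and Rnase1 from 401 (66.8%). Tac2 and Rnase1 were detected together in 64 of the 600 cells (10.7%), and Ramp3 and Pcsk1n in 452 (75.3%). At a common depth of 3000 UMIs per cell, Tac2 was detected in 30.8% and 23.2% of the chosen cells of the 2 libraries (54.8% and 36.7% before thinning) and in 1.25% and 1.21% of the other gated cells (4.36% and 4.33% before thinning). A cluster of matrix-rich cells, cluster 8 below, held no chosen cell. Without thinning, 1.18% and 0.578% of its cells had a Tac2 UMI, at a median of 12422 UMIs per cell. Since Tac2 was a gene of the rule, this low share was partly set by the choice, so it cannot serve as a measure of free RNA.

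To read the genes in UMIs that had no part in the choice, each cell's UMIs were split at random into equal parts, the choice was repeated on one part and the genes were read in the other. Of the 600 cells chosen in this way, 482 (80.3%) were among those chosen on all UMIs. In the unused UMIs Tac2 averaged 2.37 and 1.56 in the chosen cells against 0.0729 and 0.0889 in the others, and Pcsk1n averaged 4.03 and 3.39 against 0.768 and 0.699. Rnase1 averaged 0.0662 and 0.650 against 0.0125 and 0.0676. The 6 genes stayed higher in the chosen cells of both libraries, at levels somewhat under those in the UMIs that had made the choice (2.53 and 1.80 for Tac2).

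The upstream sequences of 3 genes are shown, that of Tac2 as the leading gene and those of Acsbg1 and Pcsk1n as the only genes of the rule in whose window an octamer or an AP-1 motif was found. They are the 250 bases before the RefSeq start on GRCm38.p6, at chr10:127724228-127724477 on the plus strand for Tac2, chr9:54661886-54662135 on the minus strand for Acsbg1 and chrX:7919572-7919821 on the plus strand for Pcsk1n, printed 5′ to 3′ with the motif in capitals.
Tac2: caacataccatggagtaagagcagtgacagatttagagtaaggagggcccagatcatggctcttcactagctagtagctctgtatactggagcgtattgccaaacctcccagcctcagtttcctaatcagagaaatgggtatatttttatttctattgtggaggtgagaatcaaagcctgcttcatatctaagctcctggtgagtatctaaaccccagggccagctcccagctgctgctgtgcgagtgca
Acsbg1: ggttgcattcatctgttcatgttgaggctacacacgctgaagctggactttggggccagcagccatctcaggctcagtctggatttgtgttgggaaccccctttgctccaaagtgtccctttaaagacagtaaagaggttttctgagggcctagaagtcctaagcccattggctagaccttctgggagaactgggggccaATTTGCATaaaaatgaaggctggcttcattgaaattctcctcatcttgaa
Pcsk1n: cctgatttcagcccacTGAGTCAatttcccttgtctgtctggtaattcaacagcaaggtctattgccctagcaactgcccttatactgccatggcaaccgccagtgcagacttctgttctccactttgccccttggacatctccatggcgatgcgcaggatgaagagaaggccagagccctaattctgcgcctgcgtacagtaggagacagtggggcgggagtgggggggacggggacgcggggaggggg

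Motifs were searched on both strands from 250 bases before to 50 bases after the start, for the 6 genes and for the 14 genes described below as higher in the chosen cells; 19 of these 20 genes had a window, with 20 windows in all. ATGCAAAT, the octamer of POU factors, was in 1 window (Acsbg1) and in 1.74% of all 32851 windows. TGACTCA, the AP-1 motif, was in 2 windows (Pcsk1n and Spint1) and in 5.20% of all. GGGTGTGG, bound by KLF factors, was in 4 (Avil, Bex2, Cd59a and Syngr1) and in 3.56% of all, GGGCGGGG, the GC-box, in 6 and in 17.6%, and CACGTG, the E-box that MYC binds, in 2 (Bex1 and Bex4) and in 7.15%. CATTGTT, a SOX motif, and TGACGTCA, the cAMP response element, were in 0 of the 20 windows and in 3.78% and 1.79% of all. No motif overlapped another in the windows printed. These are matches of letters only.

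The gate genes were low in the chosen cells, as the gate required. Utf1, Nanog and Dppa4 averaged at most 0.0316 in the chosen cells of either library, against at least 1.07 in the cells that failed the gate. Tdgf1, which encodes the Nodal co-receptor Cripto, averaged 1.12 in the chosen cells of replicate 1 and 0.188 in those of replicate 2, against 0.111 and 0.0598 in the other gated cells. Of the 600 cells, 342 (57.0%) had no gate gene detected, 222 (37.0%) had 1 and 36 (6.0%) had 2, whereas 4220 of the other gated cells (71.9%) had none. Among pluripotency genes outside the gate, 8 of 26 passed the minimum level and 0 were 2-fold higher or lower in both libraries. L1td1, an RNA-binding protein of pluripotent cells, averaged 1.30 and 1.05 in the chosen cells against 0.779 and 0.696 (log2 difference 0.60 ± 0.10, SD, n = 2 libraries). Tfcp2l1 averaged 0.327 and 0.338 against 0.104 and 0.146. Dppa5a went the other way, with 0.168 and 0.356 against 0.173 and 0.447. Of the 8 genes, 4 were above 0 in both libraries and 4 were below 0 in both. The summed level of the 26 genes had medians of 3.26 and 2.75 per 10000 in the chosen cells and 1.82 and 2.05 in the other gated cells. In the cells that failed the gate the medians were 80.1 and 89.1. By the median of this sum, though not gene by gene, the chosen cells were somewhat above the other gated cells. They were far below the cells that failed the gate. Since the gate had picked cells by pluripotency genes, this is no test of the label non-pluripotent.

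Differences per gene are given as log2(mean + 0.1) of the chosen minus the other gated cells, for the 7097 genes with a mean of at least 0.1 in the gated cells and without the genes of the rule and the gate. Counted as higher or lower are genes at least 2-fold apart in the same direction in both libraries. By this measure 14 genes were higher in the chosen cells (0.197% of the genes) and 270 were lower (3.8%), and the median over all genes was -0.10. Replicate 1 alone gave 36 higher and 475 lower genes and replicate 2 alone 18 and 287, and no gene was 2-fold apart in opposite directions. The 30 lowest genes of each library were all at least 2-fold lower in the other library. The 30 highest of replicate 1 were all above 0 in replicate 2 and 13 were 2-fold, and of the 30 highest of replicate 2, 30 were above 0 and 19 were 2-fold in replicate 1. With a pseudocount of 1 the counts were 0 and 32, and without the other cells of clusters 7, 8 and 9, described below, 7 and 154. Among the genes compared, more were thus lower than higher in the chosen cells. The minimum mean was taken over gated cells, of which the chosen cells were 9.28%. A gene high only in the chosen cells therefore passed it less easily than a gene low only in them. What this did to the counts was not tested.

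The 14 higher genes formed a short list with diverse roles. Cd59a (chr2:104095801-104115354, GRCm38) encodes an inhibitor of the complement membrane attack complex. It averaged 2.66 and 1.51 in the chosen cells of replicates 1 and 2 against 0.546 and 0.421 in the other gated cells. Its log2 differences, 2.1 and 1.63, were the highest on average. Dhrs4, a reductase of retinal and other carbonyls, averaged 1.98 and 1.38 against 0.460 and 0.519. Slc7a3, a transporter of cationic amino acids, averaged 0.745 and 0.337 against 0.140 and 0.104. Dhrs4 was detected in 85.1% and 71.8% of the chosen cells and Slc7a3 in 57.0% and 29.6%.

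Bex1 (chrX:136213972-136215513, GRCm38), Bex2 (chrX:136066564-136068236) and Bex4 (chrX:136138996-136140443), genes of small proteins on the X chromosome, were the Bex genes in the table and were each higher (background 0.197%). Bex2, like Spint1, Apba2 and Trh, reached the minimum mean only through the chosen cells, since its other cells lay under it on average over the libraries. The place of these genes among those compared thus already rested on a difference. Bex1 averaged 1.61 and 0.964 in the chosen cells against 0.361 and 0.348. Bex4 averaged 1.23 and 0.793 against 0.298 and 0.279. Bex2 averaged 0.548 and 0.271 against 0.0897 and 0.0724. In each of the 3 the chosen cells of replicate 1 were above those of replicate 2, while the other gated cells of the libraries were close to each other. The cells that failed the gate were higher still, with 3.0 and 4.96 for Bex1, 1.69 and 1.78 for Bex4, and 1.08 and 0.955 for Bex2, and for Slc7a3 with 0.862 and 0.593. Cd59a and Dhrs4 were lower there than in the chosen cells of the same library, with 0.909 and 0.406, and 0.945 and 0.772.

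Trh, the precursor of thyrotropin-releasing hormone, differed in kind from the rest. It averaged 0.467 and 0.490 in the chosen cells against 0.115 and 0.0744 (log2 differences 1.40 and 1.76), but it was detected in only 9.50% and 6.33% of the chosen cells, whereas Cd59a was detected in 89.1% and 63.6%. Its level came from few cells with many UMIs, 211 in all in the chosen cells of replicate 1. The remaining higher genes were Avil, an actin-binding protein of the gelsolin family (0.844 and 0.645 against 0.196 and 0.233), Cib2, a calcium-binding protein (1.02 and 1.71 against 0.374 and 0.540), and Spint1, an inhibitor of membrane serine proteases (0.453 and 0.301 against 0.0948 and 0.0977). Pllp, a membrane protein known from myelin, averaged 1.19 and 1.18 against 0.473 and 0.469, the closest agreement between libraries on the list. Apba2, Syngr1 and Gm15987 closed it with mean log2 differences of 1.14, 1.09 and 1.13. Gm15987 is annotated as an antisense RNA, and its reads cannot be told from those of an overlapping gene unless strand was used in counting, which the sources used here do not state.

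**Figure D2:**
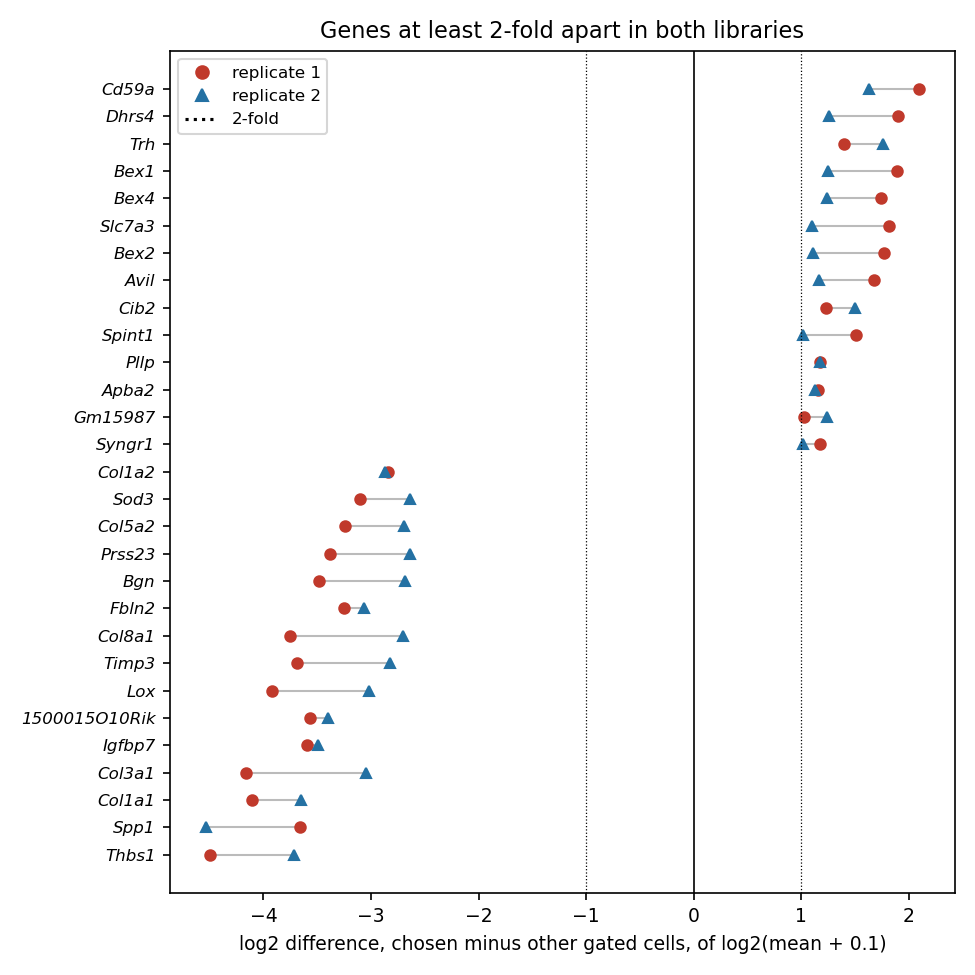
Difference between the chosen and the other gated cells in log2(mean + 0.1), for replicate 1 (circles) and replicate 2 (triangles), of the 14 genes that were higher and the 15 lowest of the 270 that were lower, with dotted lines at 2-fold. The higher genes lie between 1.01 and 2.1, and the lower genes between -4.54 and -2.64, so the lower side reaches further.

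The lower genes were led by secreted proteins of the extracellular matrix. Thbs1, the matricellular protein thrombospondin 1, averaged 0.108 and 0.121 in the chosen cells against 4.60 and 2.81 (log2 difference -4.11 ± 0.55, SD, n = 2 libraries). Spp1, osteopontin, averaged 0.665 and 0.180 against 9.59 and 6.41 (-4.10 ± 0.62). Col1a1, a chain of type I collagen, averaged 0.359 and 0.233 against 7.81 and 4.09 (-3.88 ± 0.32). Its partner chain Col1a2 averaged 2.15 and 1.22 against 16.1 and 9.59 (-2.86 ± 0.02), so the chosen cells kept more of the second chain than of the first. The proteoglycan Bgn averaged 1.47 and 2.22 against 17.5 and 14.8. Col3a1, Col5a2 and Col8a1, the crosslinking enzyme Lox, the inhibitor Timp3, the fibulin Fbln2, Igfbp7, Sod3, Prss23 and 1500015O10Rik made up the rest, with mean log2 differences from -2.87 to -3.61. Both libraries' chosen cells were below both libraries' other cells in these 15 genes, which had been picked as the lowest. The share of all genes with this pattern was not counted.

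Gene lists show how far this went. Of 15 fibroblast genes 12 passed the minimum level, 11 were lower (background 3.8%) and the median log2 difference was -2.06. Col5a1 was among them with -2.61. The summed level of the 15 genes had a median of 3.01 per 10000 in the chosen cells of replicate 1 and 2.84 in those of replicate 2, against 21.1 and 14.1 in the other gated cells, and 98.6% and 96.8% of the chosen cells lay below the median of the others. The ranges overlapped, since the 90th percentile of the chosen cells, 9.84 and 7.66, was above the 10th percentile of the others, 3.14 and 2.85. The cells that failed the gate had lower medians still, 1.73 and 1.09.

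Of 9 smooth muscle genes that passed, 5 were lower (background 3.8%), and the median of the 9 was -1.68. Tagln, an actin-binding protein of smooth muscle and of MEFs, averaged 1.35 and 1.09 against 7.79 and 5.06. Mylk, the myosin light chain kinase, averaged 0.00547 and 0.00864 against 0.612 and 0.183. Of 13 senescence and p53 target genes that passed, 5 were lower (background 3.8%), among them Igfbp3, Igfbp7, Mmp3 and Cdkn2b. Igfbp3, which binds insulin-like growth factors, averaged 0.136 and 0.257 against 2.06 and 1.39. Igfbp7 and Mmp3 encode secreted proteins as well, and Cdkn2b encodes an inhibitor of cell cycle kinases.

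**Figure D3:**
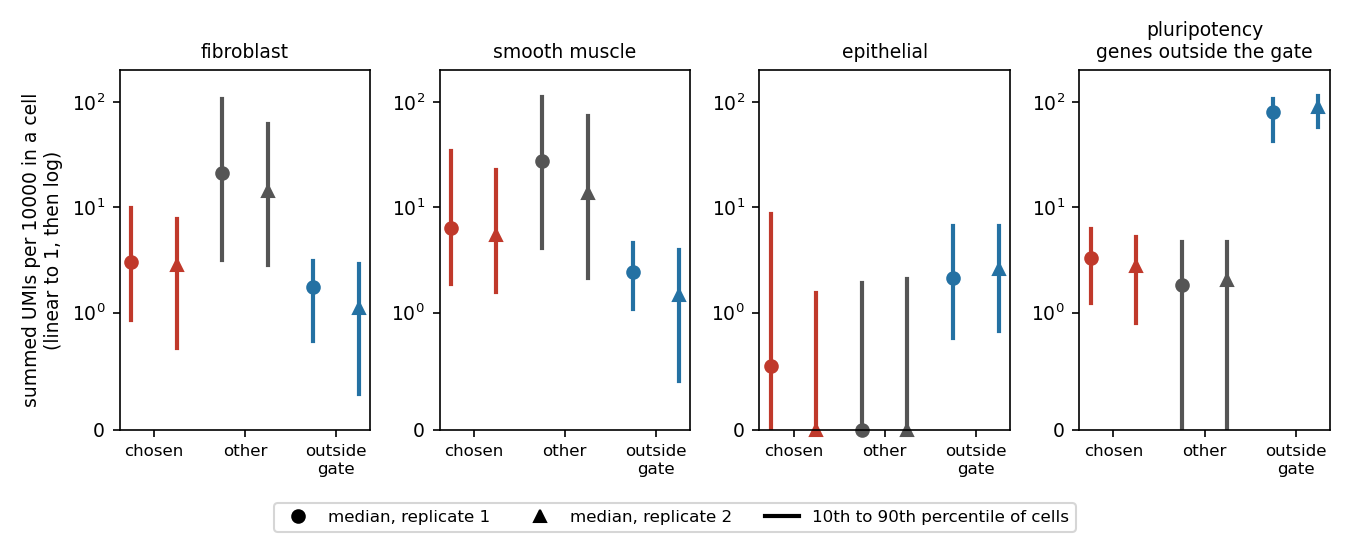
Summed UMIs per 10000 in a cell for 4 gene lists, as the median (symbols) and the 10th to 90th percentile of cells (bars), on an axis that is linear to 1 and logarithmic above. The chosen cells (red) lie between the other gated cells (grey) and the cells that failed the gate (blue) for the fibroblast list, with medians of 3.01 and 2.84, and stay near the grey cells for the pluripotency list.

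Among 259 listed transcription factors 90 passed, 0 were higher (background 0.197%, so that 0 of 90 is near it) and 10 were lower (background 3.8%). Prrx2 and Prrx1, homeobox factors of mesenchyme, averaged 0.0538 and 0.201 against 0.942 and 0.843, and 0.30 and 0.508 against 1.34 and 1.24. Ebf1, Maf, Hes1, Mecom, Plagl1 and Id3 were lower too, with mean log2 differences from -1.32 to -1.88, and so were Klf6 and Epas1. The lowest value of the list, that of Prrx2, was -2.20. Of the reprogramming factors, whose reads can come from the cassette or the endogenous gene, Klf4 averaged 0.0275 and 0.0583 against 0.232 and 0.207 (2-fold in replicate 1 alone), and Myc averaged 0.225 and 0.169 against 0.141 and 0.112. Pou5f1 averaged 0.0743 and 0.137 against 0.0842 and 0.155, a log2 difference of -0.09 ± 0.02 (SD, n = 2 libraries).

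Other genes of peptide hormones and their processing were mostly at low levels. Of 24 neuropeptide and hormone precursors only 3 passed the minimum level. Trh, which passed only through the chosen cells, was higher (background 0.197%). Penk, the enkephalin precursor, and Edn1, endothelin 1, had mean log2 differences of -1.38 and -1.02 without being 2-fold in both libraries. Of 17 granule and peptide processing genes 5 passed, and all 5 were below 0 in both libraries. Their median was -0.76, beside -0.10 over all genes, and the share of all genes below 0 in both libraries was not counted. Ctsl, a lysosomal protease, was lower (0.696 and 0.942 against 2.02 and 2.09, background 3.8%). Pam, which amidates peptides, averaged 0.674 and 0.736 against 0.909 and 0.813. Of 3 tachykinin receptors 1 was in the table, Tacr1, and its mean was at most 0.00245 in either kind of cell. Of the neural list 4 of 17 genes passed and 3 were lower (background 3.8%), namely Ncam1, Stmn2 and Nes.

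Few relatives and partners of the other marker genes passed the minimum level. They were 3 adrenomedullin and calcitonin receptor genes, 2 ribonuclease genes and 3 acyl-CoA synthetases. Of these, 0 were higher, which is near the background of 0.197%. Adm, the adrenomedullin precursor whose receptor uses Ramp3, was lower, with 0.0773 and 0.145 against 0.458 and 0.560, and Ramp2, the related accessory protein, averaged 0.522 and 0.816 against 0.535 and 0.614. Of the acyl-CoA synthetases 3 passed with a median of 0.02. Rnase4 averaged 0.246 and 0.854 against 0.912 and 1.05, so like Rnase1 it was higher in the chosen cells of replicate 2 than in those of replicate 1. No other Dmrt gene passed the minimum level, and none of 21 germ cell genes did. Against the background of 3.8% for lower genes, 1 of 6 Wnt genes that passed was lower, Sfrp1, a secreted Wnt antagonist (1.55 and 1.41 against 6.03 and 4.42). Of the BMP, TGF-beta and Id list 2 of 10 were lower, Tgfb1 and Id3.

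Other cell types were checked by their markers. The summed macrophage list had medians of 0.520 and 0.477 per 10000 in the chosen cells against 0 and 0 in the other gated cells, and its highest value was 7.76 in a chosen cell and 559 in another gated cell. Of the 2 macrophage genes that passed, Laptm5 averaged 0.646 and 0.562 against 0.641 and 0.491, and Lyz2 at most 0.0162 against 0.101 and 0.325; the part of such RNA in the results was not tested. The endothelial list had medians of 0 in both libraries. Neither trophoblast nor germ cell genes passed the minimum level, and of 13 keratinocyte genes only Lgals7 did. Metabolic lists moved little, and 0 genes of the glycolysis and cholesterol synthesis lists were 2-fold apart. Of 17 glycolysis genes that passed, 15 were above 0 in both libraries, with a median of 0.26. Of 14 cholesterol synthesis genes 12 were below 0, with a median of -0.17, near the median of -0.10 over all genes. The share of all genes above or below 0 was not counted.

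Ribosomal protein genes were the genes most like the score. Over the 2949 and 3517 gated cells the highest mean Spearman correlations with the score were those of Rpsa (0.49), Rpl10a (0.49), the glutathione transferase Gsta4 (0.49), Rps9 (0.48) and Rps10 (0.48), followed by Rps3, Rps18, Rps19, Rps4x and Eef1b2 (0.46 to 0.45), and the lowest were Lgals1 (-0.64), Sparc (-0.62), Bgn (-0.57), Col1a2 (-0.55) and Timp2 (-0.54). These are descriptions over cells that share libraries and depth. Ribosomal protein genes, a list set after the values were seen, made up a median of 43.1% and 46.1% of the UMIs of a chosen cell, against 36.6% and 40.0% in the other gated cells and 39.7% and 40.6% in the cells that failed the gate. Of the 83 that passed, 80 were above 0 in both libraries, a share that was not counted over all genes. At 2-fold there were 0 (background 0.197% higher and 3.8% lower). Their median log2 difference was 0.23, beside -0.10 over all genes. All levels here are shares of a cell's UMIs, and what this does to the ribosomal share was not tested.

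The chosen cells were placed among clusters of the gated cells that had been made without the 6 genes and the gate genes. Of 16 clusters, numbered from 0, cluster 0 held 318 of the 600 (53%) and cluster 5 held 124 (20.7%). The leading genes of cluster 0 were Cib2, Gm15987, Jam2, Gstm1, Trh and Pllp, of which 4 were among the 14 higher genes (background 0.197%). This overlap is partly built in, since cluster 0 held 53% of the chosen cells. The leading genes of cluster 5 were S-phase genes such as Dtl and Hells. The chosen cells made up 35.5% of cluster 0 and 23.4% of cluster 5. Smaller parts lay in cluster 3 (36 cells, led by Perp and Krt19), cluster 11 (31, led by Epcam and Krt18), cluster 10 (29, led by Dkk2 and Ccl8), cluster 6 (27, led by Cdc20 and Cenpa) and cluster 12 (14, led by Igfbpl1). Clusters 7 and 8, led by Mylk and Col8a1 and by Spp1 and Mmp3, held 0 of 493 and 0 of 428 cells, which allows shares of up to 0.609% and 0.701%.

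The libraries differed in this placement. In replicate 2, 66.2% of the chosen cells lay in cluster 0 and 16.4% in cluster 5, and in replicate 1 30.3% and 28.1%. Cluster 11 held 13.6% of the chosen cells in replicate 1 but 0.264% in replicate 2, and 63 of its 71 cells were of replicate 1, so this cluster was mostly of 1 library. With coarser and finer clusters the cluster with most chosen cells held 56.5% and 39.7% of them.

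**Figure D4:**
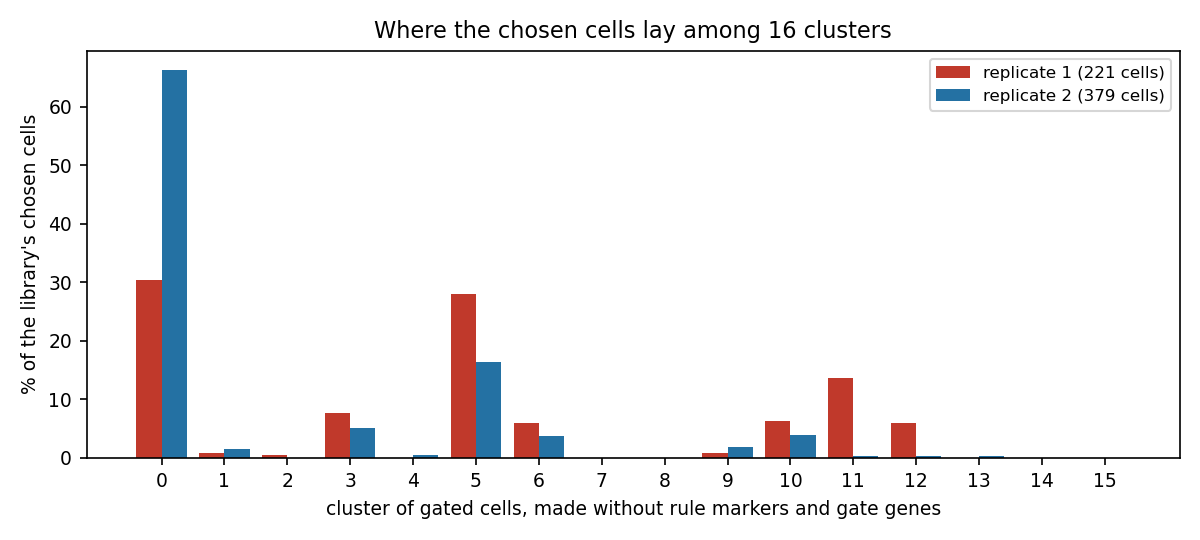
Percent of the chosen cells of each library that lay in each of 16 clusters of gated cells, with replicate 1 in red and replicate 2 in blue. Cluster 0 is the tallest bar in both libraries, with 30.3% and 66.2%, and cluster 11 is visible in replicate 1 (13.6%) and nearly absent in replicate 2 (0.264%).

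Within cluster 0 most of the differences shrank. There 67 and 251 chosen cells were set against 146 and 433 others of the same cluster, and 1 of 6324 genes was higher (0.0158%) and 2 were lower (0.0316%). Nnat, an imprinted gene known from developing brain, averaged 0.298 and 0.243 against 0.0586 and 0.0565. It reached the minimum mean there only through the chosen cells, since its other cells lay under it. Fam101b averaged 0.0967 and 0.185 against 0.780 and 0.495, and the zinc finger factor Mecom 0.0688 and 0.0198 against 0.338 and 0.151. The median log2 difference of the 14 higher genes went from 1.43 over all gated cells to 0.59, and all 14 had a mean difference above 0. That of the 15 lower genes went from -3.26 to -0.47 (12 passed the minimum level there). Trh and Cib2 were below 0 in replicate 1 (-0.26 and -0.21). Cd59a had the highest mean difference there, 1.18, with 2.64 and 1.61 against 0.893 and 0.817, but was under 2-fold in replicate 2 (0.90), whereas Cib2, Gm15987 and Bex2 were within 0.27 of 0. Col1a1 averaged 0.393 and 0.165 against 0.417 and 0.228, so cells of cluster 0 had little Col1a1 whether or not they were chosen. The genes of the rule stayed apart there as they had to, with Tac2 at 2.13 and 1.82 against 0.143 and 0.162, but Acsbg1 was less than 2-fold apart in both libraries (log2 differences 0.76 and 0.96) and Ramp3 in replicate 1 (0.94).

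**Figure D5:**
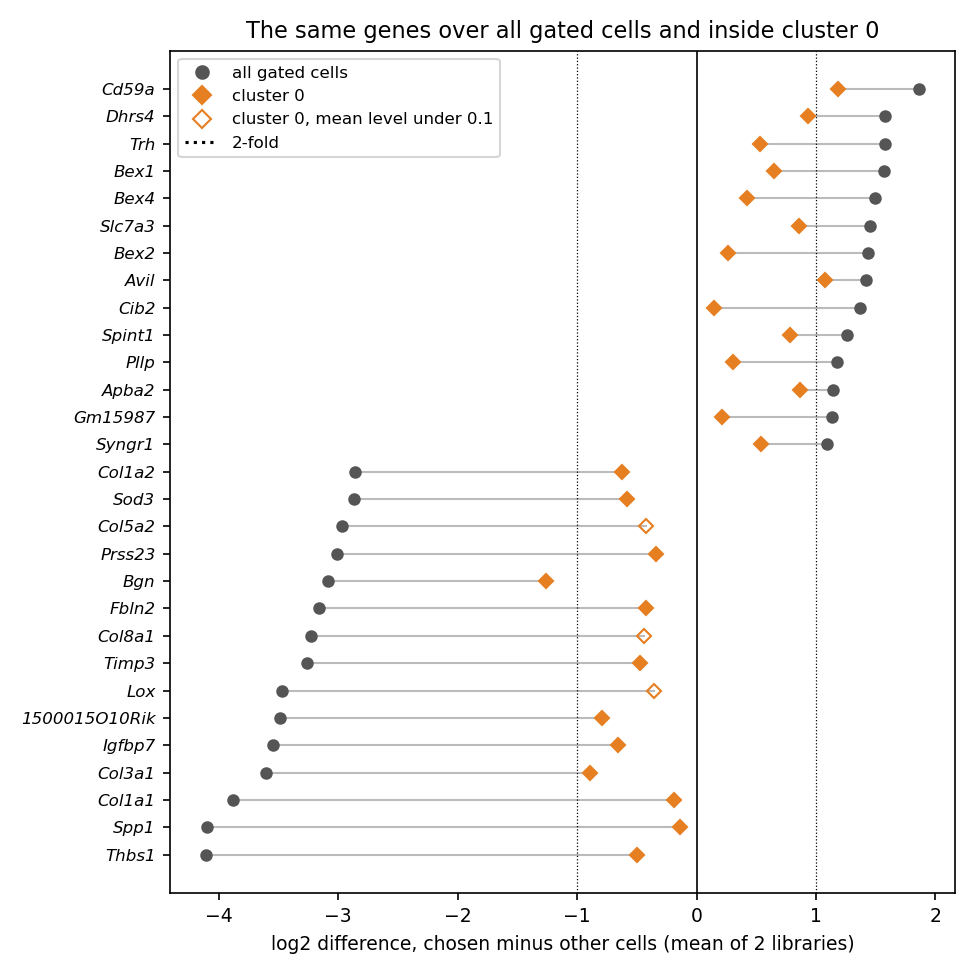
Mean log2 difference over the 2 libraries of the 14 higher and 15 lower genes, over all gated cells (grey circles) and inside cluster 0 (orange diamonds, open where the mean level there was under 0.1), with dotted lines at 2-fold. The diamonds lie between 0.15 and 1.18 for the higher genes and between -1.26 and -0.14 for the lower genes.

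The chosen cells were not of 1 kind. Those of cluster 11 had a mean of 5.98 for Tac2, 0.295 for Acsbg1, 6.86 for Epcam and 3.83 for Tdgf1. Those of cluster 10 had the reverse, 0.196 for Tac2 and 10.1 for Pcsk1n, with 7.02 for Col1a2. Those of cluster 0 lay between, with 1.89 for Tac2, 3.90 for Pcsk1n and 0.988 for Col1a2. Different sums of the 6 genes thus reached a similar score.

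Cells with Epcam, the epithelial cell adhesion molecule, were far more frequent among the chosen cells of replicate 1. An Epcam UMI was found in 59 of the 221 chosen cells of replicate 1 (26.7%, exact 95% binomial interval 21.0 to 33.0) and in 17 of the 379 of replicate 2 (4.49%, 2.63 to 7.08), against 6.38% and 3.25% of the other gated cells. In replicate 1 their median depth was 19074 UMIs against 16758 in the chosen cells without it, and 28 of the 59 lay in cluster 11 and 35 also had a Tdgf1 UMI. The cells with Epcam in replicate 1 averaged 4.27 for Tac2 against 1.82 in the chosen cells without it, and 1.14 for Bex2 against 0.331. They averaged 2.38 against 5.23 for Pcsk1n and 1.00 against 2.09 for Acsbg1. Tdgf1 averaged 3.13 against 0.384, Krt8 0.600 against 0.00788 and Krt18 0.565 against 0.0383. Krt19 averaged 0.0639 against 0.0341, under the 0.142 of the other gated cells of replicate 1. Over all chosen cells, 4 of 16 epithelial genes passed the minimum level. Of these, 0 were higher or lower, and the median log2 difference was -0.34. Without all chosen cells that had an Epcam UMI, 10 genes were higher and 266 lower, and the share of replicate 1 among the chosen cells went from 36.8% to 30.9%.

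Tac2 divided the chosen cells in a like manner. In replicate 1 the 121 cells with a Tac2 UMI averaged 1.2 for Acsbg1 and 3.55 for Pcsk1n, and the 100 cells without averaged 2.53 and 5.58, at median depths of 17266 and 17117 UMIs. In replicate 2 the 139 cells with Tac2 averaged 1.47 and 3.45 and the 240 without averaged 1.95 and 3.89. A cell without Tac2 needs more of the other 5 genes to reach the edge, so these values depend on the choice. Some genes outside the rule differed as well. Cd59a averaged 3.20 in cells with Tac2 and 2.01 in cells without in replicate 1, and 1.74 and 1.38 in replicate 2. Dhrs4 averaged 2.56 and 1.29, and 1.69 and 1.21. Trh went in opposite directions in the libraries, with 0.223 and 0.763 in replicate 1 and 0.566 and 0.446 in replicate 2.

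The difference between the chosen and the other cells was itself not the same in both libraries for some genes. Over the 7097 genes it was at least 2-fold higher in replicate 1 for 10 and in replicate 2 for 26, and this was not tested. Toward replicate 1 were Epcam (1.15 and 0.0381 in the chosen cells), Cd24a (0.737 and 0.208), Igfbpl1 (1.16 and 0.187) and Wfdc2 (1.61 and 0.650). Toward replicate 2 were Xist (3.16 and 7.78 in the chosen cells, 4.91 and 4.84 in the others), Rnase4 and Apod (0.956 and 2.40, 2.69 and 2.63). Xist, the RNA that silences an X chromosome, was thus lower in the chosen than the other cells of replicate 1 and higher in those of replicate 2. For some genes the libraries differed mainly in the other gated cells. Penk, with the largest gap toward replicate 2, averaged 0.0375 and 0.0153 in the chosen cells and 0.496 and 0.0812 in the others. Mylk was alike, with 0.00547 and 0.00864, and 0.612 and 0.183. Toward replicate 1, Trf averaged 0.00656 and 0.0107 in the chosen cells and 0.0150 and 0.251 in the others. Y-linked genes were detected after thinning in 9.50% and 10.3% of the chosen cells and in 12.6% and 14.0% of the others (47.1%, 28.8%, 38.8% and 39.4% before thinning), so both libraries held cells with Y-linked UMIs.

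Cycling genes were compared by the share of cells that held them. After thinning, at least 3 UMIs of 25 S-phase genes were found in 40.7% of the chosen cells of replicate 1 (exact 95% binomial interval 34.2 to 47.5) and 28.0% of those of replicate 2 (23.5 to 32.8), against 28.0% and 26.9% of the other gated cells. For 25 G2 and M genes the shares were 38.9% (32.4 to 45.7) and 18.5% (14.7 to 22.8), against 26.5% and 26.4%. Before thinning they were 82.8% and 71.2% against 71.3% and 66.0% for S phase, and 73.3% and 53% against 52.7% and 50.7% for G2 and M. S-phase genes were thus above the other cells in both libraries, by little in replicate 2. Of the 21 that passed, 16 had differences above 0 in both. The median of the 21 was 0.28, beside -0.10 over all genes, and the share of all genes above 0 in both was not counted. For G2 and M genes replicate 1 was above the other cells either way, and replicate 2 was below them after thinning but slightly above before, so no direction is given for it. Leaving out the chosen cells of clusters 5 and 6, where cycling genes lead, left 14 higher and 268 lower genes.

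Against the 2 other non-pluripotent sets taken by the same rule with their own genes, 600 cells each, the chosen cells shared few cells. The chosen cells were 9.28% of all gated cells. They shared 24 cells (4.0% of each set) with the cells highest in Pcp4, Ntrk2 and Thbd and 4 cells (0.667% of each) with the cells highest in Rarres2, Sostdc1 and Cyp11a1. The fibroblast list averaged 4.46 and 3.99 per 10000 in the chosen cells, 33.5 and 23.9 in the Pcp4 set and 43.0 and 33.2 in the Rarres2 set. Cd59a averaged 2.66 and 1.51, against 0.306 and 0.218 and against 0.492 and 0.386. Cib2 was closer, with 1.02 and 1.71 against 0.992 and 0.952 in the Pcp4 set, and 0.136 and 0.239 in the Rarres2 set. Since all 3 sets were chosen by their expression, these values are descriptions.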

How the data were processed

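Unsorted day 16 STEMCCA cells were profiled in 2 droplet 3' libraries. Per the submitters' processing notes, Cell Ranger 2.1.1, Seurat and mm10 were used; the authors kept cells with 1500 to 6000 genes and under 9% mitochondrial UMIs. The deposited values are the natural log of 1 plus UMIs per 10000, and UMIs were recovered from them as whole numbers. Both libraries were of 1 group, so no comparison of conditions was possible and no test was run; intervals are exact binomial and cover counting error only. Levels are means of UMIs per 10000, compared within a library as log2(mean + 0.1) for genes whose mean reached 0.1. Named are up to 15 genes each way by mean difference among those 2-fold apart in both libraries, up to 4 such genes of each list (8 lower transcription factors) or else its 2 most abundant genes, and the 10 genes most like the score; others, such as Epcam, Tfcp2l1, Klf6 and Apod, were named after their values were seen. Clusters (scanpy 1.11.5, leidenalg 0.10.2) used 2000 variable genes, 30 components, 15 neighbours and resolution 1, without the rule and gate genes. Detection was compared at 3000 UMIs per cell, to which no cell was too shallow. Scripts were tested on simulated data. The members and lists were chosen with earlier results of these data known. Alternatives covered the pseudocount, level minimum, number of cells, scoring, thinning, clustering and each library alone.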

Additional observations from a re-analysis of the deposited data

How the results depend on the processing

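The counts of higher and lower genes (14 and 270) and the medians of the fibroblast and smooth muscle lists (-2.06 and -1.68) kept their direction in all alternatives run, except where a count was 0. With a pseudocount of 0.01 they were 31, 521, -2.99 and -1.92, and with a pseudocount of 1 they were 0, 32, -0.78 and -0.95. A minimum mean of 0.5 gave 4 and 137 genes. The smooth muscle median was -1.13 with no minimum mean, -1.27 with 1200 cells and -1.36 with thinned markers. With either library left out, the counts ranged from 18 to 36 and from 287 to 475, the fibroblast median from -2.32 to -1.82 and the smooth muscle median from -1.69 to -1.38. The share of replicate 1 among the chosen cells (36.8%) was 41.3% with z-scores within a library and 43.0% without Rnase1 in the score. Further alternatives were chosen after seeing the data. That share was 30.9% without the cells with Epcam and 32.5% without those of clusters 5 and 6. Without the other cells of clusters 7, 8 and 9 the counts and medians were 7, 154, -1.56 and -1.16, and within clusters 0 and 5 they were 0, 2, -0.35 and -0.27. At resolution 2 the leading cluster held 39.7% of the chosen cells in place of 53%. Of 783 values of single named genes 611 stayed within the spread between libraries, 172 moved and 0 reversed. The causes were not tested. Part of the 611 was fixed in advance. With either library left out, or with another minimum mean, all 29 genes had to stay within the spread by the way it was computed. Within clusters 0 and 5 all 29 moved, and with a pseudocount of 1, 28 did. No paired analysis was possible because both libraries belong to 1 group. With 2 libraries the spread rests on a single difference, and at this depth a gene without a UMI in a cell cannot be called absent.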
